A study of Homo sapiens with 96 samples.

Results

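A375 is a human melanoma cell line whose growth depends on the BRAF-MEK-ERK (MAPK) kinase cascade. The libraries described here follow the change in its transcripts over 5 h in vehicle that came after 18 h of MAPK inhibition (MAPKi). They were chosen by their labels: the 12 vehicle libraries of MAPKi-pretreated cells, taken 0, 1, 3 and 5 h after vehicle was added, and the 6 vehicle libraries of DMSO-pretreated cells at 0 and 5 h, which serve as background. These are 18 of the 96 libraries of the series, and each group holds 3. MAPKi-pretreated cells had received 500 nM vemurafenib, a BRAF inhibitor, and 500 nM cobimetinib, a MEK inhibitor, for 18 h, and the background cells had received DMSO in fresh medium for the same time. Every vehicle culture was then given DMSO in the place of cycloheximide and again in the place of triptolide, the translation and transcription inhibitors used in the other arms. The sources used here do not state whether the vemurafenib and cobimetinib medium was kept on the cells during these 5 h, so MAPKi and DMSO name the pretreatment throughout. QuantSeq reads the 3′ ends of polyadenylated RNA, here from the cytoplasmic fraction, and the counts were scaled to CPM, counts relative to the size of the library, with TMM factors. Each time was its own harvest batch, so batch and time cannot be told apart within a pretreatment. The labels do not say that replicates came from separate cultures, and p-values then measure only the spread between these libraries, which may be technical.

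In BRAF-mutant melanoma the cascade runs from BRAF through MEK to ERK, which switches on immediate-early and feedback genes and, through cyclin D1, the entry into the cell cycle. Blocking it silences the direct targets within hours, and the genes of DNA replication and mitosis follow as cells leave the cycle. Cells that live through the drug are known to shift their lineage program, receptors and cytoskeleton. YAP and TAZ, which bind TEAD factors and respond to cell shape and tension, drive a set of genes that includes CCN1 and CCN2.

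Total counts of the 18 libraries ran from 3719323 to 9609115 with a median of 6571914, and replicates of a group correlated at 0.976 to 0.988 on the log2 scale. The melanoma markers MITF (134 to 582 CPM), SOX10 (156 to 461 CPM) and S100B (186 to 311 CPM) were present in all 18 libraries, whereas MLANA stayed at or below 3.23 CPM and TYR at or below 0.937 CPM. Of the markers of other cell types, KRT5, KRT1, COL1A2, COL3A1, DCN, PECAM1, CDH5, CLDN5 and CD3E had no count in any of the 18. The 8 keratinocyte markers summed to 103 to 184 CPM, nearly all from KRT10. The summed fibroblast, endothelial and leukocyte markers stayed at or below 12.1, 2.75 and 26.2 CPM. The strand setting of the read counting is not given in the sources used here, so reads of CCN2, HDAC9, CDC42EP3, EXOSC10, CIITA, MATN4, MCM7, PHLDA1 and NGFR cannot be told apart from those of annotated antisense neighbours.

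Between 0 and 5 h in vehicle, MAPKi-pretreated cells lost transcripts of DNA replication and mitosis. Contractile and YAP target genes included risers in both pretreatments, and fewer genes passed the test in DMSO-pretreated cells. Of 14948 genes tested with edgeR's quasi-likelihood test, 499 passed an adjusted p of 0.05 in MAPKi-pretreated cells (3.34% of those tested). Of these 189 were higher at 5 h (1.26%) and 310 lower (2.07%). In DMSO-pretreated cells 159 passed (1.06%), of which 87 were higher (0.582%) and 72 lower (0.482%). At an unadjusted p under 0.05 in this test, 945 were higher and 1278 lower with MAPKi, and 877 and 928 with DMSO. The 5 h libraries held 6280041, 6749148 and 8785184 counts with MAPKi and 4513416, 3719323 and 7675571 with DMSO. The part of depth in the number of calls was not tested. Most changes were small: the median size of a called change with MAPKi was 0.534 on the log2 scale, and 67 of the 499 reached 1 or more. Scaling by total counts instead of TMM turned the MAPKi split to 272 higher and 205 lower, so the excess of lower genes depends on the scaling.

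The drifts of the pretreatments share no library and were compared directly. The 43 genes called in the same direction in both made up 8.62% of the MAPKi calls and 27.0% of the DMSO calls, with 25 higher and 18 lower, and no gene was called in opposite directions. Among the MAPKi calls 68.5% had the same sign of change with DMSO, against 49.9% of all genes tested. The change itself differed between pretreatments for 110 genes (0.736% of those tested), 38 with the larger log2 change in MAPKi-pretreated cells (0.254%) and 72 with the smaller (0.482%). The count of 110 fell to 6, 9 and 6 genes when replicate 1, 2 or 3 was left out. With total counts it was 43 larger and 32 smaller. Of the differences on named genes, those of JUN and CDC42EP3 were called under every alternative tried, and each other one was lost under at least 1.

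**Figure D1:**
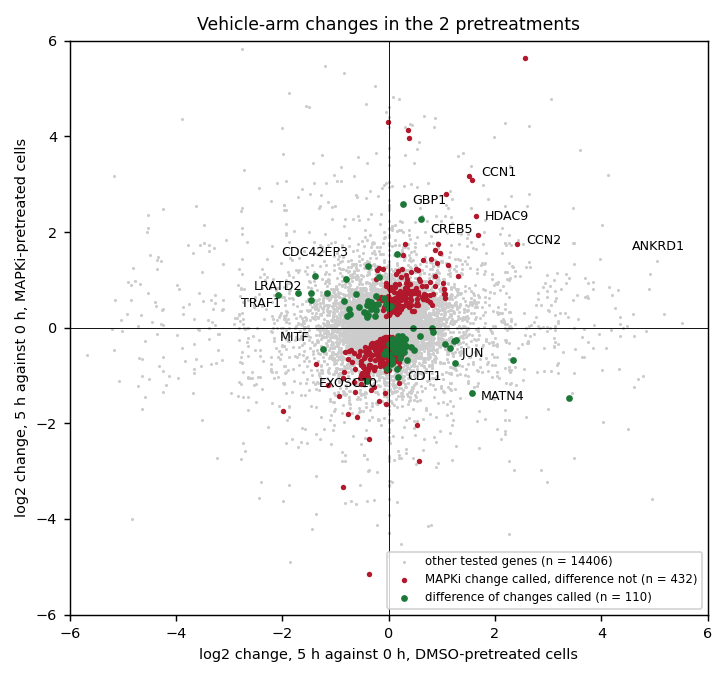
Log2 change from 0 to 5 h in DMSO-pretreated cells (x axis) against MAPKi-pretreated cells (y axis), 1 point per gene tested, from the fit to all libraries. Green points are the 110 genes whose changes differed, red points are the 432 other genes called with MAPKi, and 2 of the 14948 genes fall outside the axes.

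The 55 DNA replication genes showed the clearest loss. Of these, 16 (29.1%) were called lower in MAPKi-pretreated cells and none higher, beside 2.07% of all genes lower, and their median log2 change was -0.40 against 0 for all genes. In DMSO-pretreated cells 2 of the 55, ORC2 and DSCC1, were called lower, with a median of -0.05. At an unadjusted p under 0.05, 33 were lower and 0 higher with MAPKi, and DESeq2 called 24 lower and 0 higher. Per library, the median change of the list from its 0 h mean was -0.48, -0.25 and -0.40 at 5 h of MAPKi, all below the 0 h libraries, which lay at -0.10, 0.10 and -0.02. At 1 h it was 0.02 to 0.04 and at 3 h -0.14 to -0.05, and the 3 libraries at 5 h were the lowest of the 12. Whether fewer cells were in S phase or each such cell held less of these RNAs cannot be told apart in bulk RNA.

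The called members covered origin licensing, fork and nucleotide supply genes. CDT1, which loads the replicative helicase onto origins, stood at 30.3, 34.5 and 37.2 CPM at 0 h and at 19.8, 20.5 and 15.9 CPM at 5 h, and the groups did not overlap. Its log2 change was -0.87 (SE 0.15, edgeR adjusted p = 8.17e-05), and in DMSO-pretreated cells it was 0.15 (adjusted p = 0.722), from a mean of 72.6 to 80.7 CPM. The difference of changes was -1.02 (SE 0.21, adjusted p = 0.00598). MCM3, a subunit of that helicase, stood at 96.5, 144 and 110 CPM at 0 h and at 80.2, 87.9 and 77.7 CPM at 5 h, a difference of changes of -0.73 (adjusted p = 0.00598). MCM7, of the same complex, went from a mean of 157 to 109 CPM with MAPKi and from 358 to 414 CPM with DMSO, a difference of -0.73 (adjusted p = 0.0056). RRM2, the regulated subunit of ribonucleotide reductase, went from 145 to 97 CPM with MAPKi and stood at 442 CPM at both times with DMSO, a difference of -0.58 (adjusted p = 0.0387). These 4 are the members whose changes differed between pretreatments, and each difference missed the threshold when any replicate was left out.

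The other called members were MCM4, MCM5, MCM6 and MCM8 of the helicase family, the clamp loader subunits RFC2 and RFC5, RPA2, RRM1, TK1, GMNN, TIMELESS and CHAF1A. Their log2 changes ran from -0.63 for RFC5 (adjusted p = 0.00316) to -0.39 for RPA2 (adjusted p = 0.0304). Most of these genes were already low at 18 h. In the 0 h libraries of the inhibitor arms, which share no library with the drift, the median log2 difference between MAPKi and DMSO over the list was -1.16, and it was -1.17 for CDT1 and -1.74 for RRM2. The count of 16 fell to 6, 5 and 2 when replicate 1, 2 or 3 was left out, with list medians of -0.38 to -0.39.

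Mitosis genes showed a shallower decline. Of 56, 12 (21.4%) were called lower with MAPKi and none higher, beside 2.07% of all genes lower, with a median of -0.24, and none was called with DMSO, where the median was 0.05. At an unadjusted p under 0.05 the counts were 30 lower with MAPKi, and 8 higher and 4 lower with DMSO, where DESeq2 called 1 higher. Without replicate 1, 2 or 3 the count was 5, 6 and 3. INCENP, a scaffold of the chromosomal passenger complex, stood at 149, 169 and 172 CPM at 0 h, at 152, 211 and 178 CPM at 1 h, at 129, 172 and 137 CPM at 3 h and at 94.5, 101 and 98.1 CPM at 5 h. All 3 libraries at 5 h lay below every earlier one. Its log2 change was -0.74 (SE 0.09, adjusted p = 3.84e-08), and in DMSO-pretreated cells it was 0.07 (adjusted p = 0.834), with libraries of 150 to 158 CPM at 0 h and 156 to 169 CPM at 5 h. The difference was -0.81 (SE 0.13, adjusted p = 0.000193) and was lost without replicate 3.

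TOP2A, the topoisomerase that untangles sister chromatids, went from 1510, 1920 and 1720 CPM to 1230, 1280 and 1200 CPM with MAPKi (log2 change -0.47, SE 0.09, adjusted p = 0.000656). In DMSO-pretreated cells it was 0.19 (adjusted p = 0.418), and the difference was -0.66 (adjusted p = 0.0056). SPC24 of the kinetochore fell by 0.68 on the log2 scale (adjusted p = 0.000433), and its difference from DMSO did not pass (adjusted p = 0.0643). FOXM1, the transcription factor of late cell cycle genes, fell by 0.51 (adjusted p = 0.0136) with a difference of -0.71 (adjusted p = 0.0387). CDC25B, CENPF, KIF4A, PTTG1 and MKI67 were also called lower with MAPKi, and the difference was called for each, between -0.63 and -0.47. Like those of TOP2A and FOXM1, these differences were lost when any replicate was left out. For the apoptosis inhibitor BIRC5 the difference was called (-0.42, adjusted p = 0.0233), but not the MAPKi change (-0.18, adjusted p = 0.193). NUSAP1, HMMR and NCAPG were called with MAPKi alone, at -0.37, -0.49 and -0.35, and their differences did not pass.

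**Figure D2:**
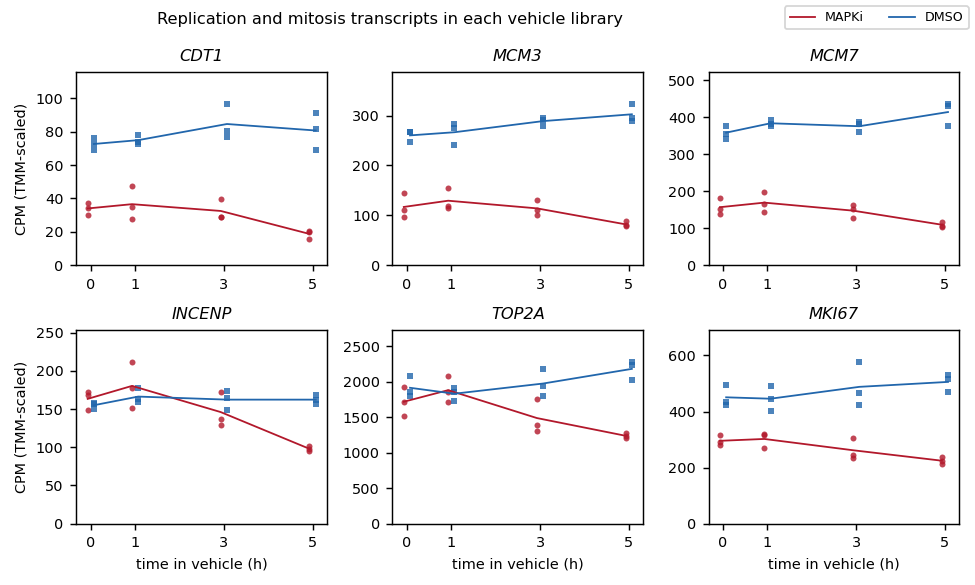
CPM (y axis, from 0) against time in vehicle (x axis, h) for 3 replication and 3 mitosis genes, with 1 point per library and lines through group means of 3 (MAPKi red circles, DMSO blue squares). In each panel the MAPKi libraries at 5 h lie below those at 0 h, and the DMSO means at 5 h are not below those at 0 h.

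DNA repair genes moved less as a group. Of 70, 7 (10.0%) were called lower and none higher with MAPKi, beside 2.07% of all genes lower, with a median of -0.07, and none was called with DMSO (median -0.08), where 6 were lower at an unadjusted p under 0.05 and DESeq2 called 0. BRCA1, of homologous recombination, fell by 0.61 on the log2 scale (adjusted p = 0.000153), from a mean of 83.0 to 54.5 CPM, and had reached 52.8 CPM at 3 h. XRCC2 (-0.59), CHEK1 (-0.58) and UNG (-0.56), which serve strand exchange, the replication checkpoint and uracil removal, were called with adjusted p of 0.0156, 0.0247 and 0.0405. FANCD2, XRCC5 and XRCC6 were also called lower, and XRCC6 was the member whose change differed from DMSO (-0.53, adjusted p = 0.0387), a difference lost when any replicate was left out. Without replicate 1, 2 or 3, 2, 2 and 0 of the 70 were called, and 3 with total counts.

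Replication genes are known targets of E2F factors, so their promoters were searched for an E2F site. RefSeq windows from 250 bases before to 50 after the start (GRCh38.p14) were found for 11024 of the 14948 genes tested and for 46 of the 55 replication genes. The letters TTTCCCGC or TTTGGCGC, on either strand, were in 19 of those 46 (41.3%), beside 3.68% of all 11024. Among the 13 called members with a window, 5 held them (38.5%), so the called members did not hold them more often than the list. They were in 2 of 47 mitosis promoters (4.26%) and in 22 of 252 promoters of all genes called lower (8.73%). Of the other motifs searched, the E-box letters CACGTG were in 8 of the 46 replication promoters (17.4%), beside 9.87% of all 11024. Among the 13 called members 5 held CACGTG (38.5%), a larger share than in the list. It was in 24 of the 252 promoters of all genes called lower (9.52%). The promoters of the 3 licensing genes whose changes differed are shown in the direction of transcription with the match in capitals. That of MCM3 spans chr6:52284693-52284992 on the minus strand, that of MCM7 chr7:100101348-100101647 on the minus strand and that of CDT1 chr16:88803539-88803838 on the plus strand.
MCM3: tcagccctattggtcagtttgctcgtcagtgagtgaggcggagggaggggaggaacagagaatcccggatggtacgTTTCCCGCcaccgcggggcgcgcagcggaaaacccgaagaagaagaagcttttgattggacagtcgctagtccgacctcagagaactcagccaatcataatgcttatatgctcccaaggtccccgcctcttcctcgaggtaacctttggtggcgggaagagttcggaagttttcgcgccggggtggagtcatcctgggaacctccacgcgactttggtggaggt
MCM7: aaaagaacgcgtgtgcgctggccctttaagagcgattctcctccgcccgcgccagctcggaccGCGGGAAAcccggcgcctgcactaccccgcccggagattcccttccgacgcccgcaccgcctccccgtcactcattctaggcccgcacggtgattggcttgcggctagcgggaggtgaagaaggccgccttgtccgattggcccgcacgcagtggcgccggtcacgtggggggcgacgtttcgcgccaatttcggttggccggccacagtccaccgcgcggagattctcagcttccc
CDT1: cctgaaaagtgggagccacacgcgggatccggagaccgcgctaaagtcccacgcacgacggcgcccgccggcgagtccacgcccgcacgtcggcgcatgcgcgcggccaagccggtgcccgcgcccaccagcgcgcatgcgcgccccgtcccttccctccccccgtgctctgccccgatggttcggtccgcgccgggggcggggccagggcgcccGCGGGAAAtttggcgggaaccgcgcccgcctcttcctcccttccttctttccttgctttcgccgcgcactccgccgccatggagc
Each holds 1 match, in MCM3 as TTTCCCGC and in MCM7 and CDT1 on the opposite strand. A match is a string of letters and does not show binding.

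Contractile and YAP target genes included risers in both pretreatments. Of 26, 10 (38.5%) were called higher with MAPKi and 2 lower, beside 1.26% of all genes higher, and with DMSO 6 were called higher and 1 lower. The medians were 0.23 and 0.47. The change differed between pretreatments for 1 member, AMOTL1, a partner of YAP at cell junctions, which fell by 0.55 with MAPKi (adjusted p = 6.35e-06) and stood at a mean of 134 CPM at both times with DMSO, a difference lost when any replicate was left out. The number called higher with MAPKi was 6, 9 and 7 without replicate 1, 2 or 3.

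CCN1, a secreted matrix protein and a rapid target of YAP and of serum response factor, stood at 8.51, 6.09 and 3.78 CPM at 0 h of MAPKi, at 72.8, 26.3 and 104 CPM at 1 h, at 97.4, 35.3 and 124 CPM at 3 h and at 26.2, 70.5 and 59.5 CPM at 5 h. Every later library lay above every 0 h library. The log2 change at 5 h was 3.09 (SE 0.63, adjusted p = 0.000907), and CCN1 was not called by the slope over the 4 times (adjusted p = 0.451). In DMSO-pretreated cells CCN1 stood at 3.11, 8.46 and 16.1 CPM at 0 h and 15.5, 14.2 and 54.0 CPM at 5 h, which overlap, and its change of 1.57 did not pass (adjusted p = 0.257), while at 1 h and 3 h it had means of 57.9 and 104 CPM. The difference of changes did not pass (1.52, SE 0.89, adjusted p = 0.476).

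CCN2, a relative of CCN1, rose with MAPKi from 11.4, 11.6 and 8.49 CPM to 25.9, 49.0 and 31.3 CPM (log2 change 1.76, adjusted p = 0.000192, not called by the slope), and with DMSO from 18.3, 26.2 and 30.5 CPM to 129, 138 and 140 CPM (2.42, adjusted p = 1.49e-08). LATS2, a kinase that restrains YAP and is itself a YAP target, rose from 38.0, 41.3 and 38.4 CPM to 83.6, 91.7 and 72.8 CPM with MAPKi (1.07, adjusted p = 1.64e-07), after 117, 90.1 and 109 CPM at 3 h. With DMSO it rose from a mean of 24.1 to 44.3 CPM (0.87, adjusted p = 0.000163). AMOTL2, a feedback inhibitor of YAP, rose by 1.08 with MAPKi and by 1.30 with DMSO, and VCL, which links integrins to actin, by 0.75 and 0.54. CNN2, an actin-binding protein, was also called in both. AJUBA, SRF, MYH9 and THBS1 were called higher with MAPKi and not with DMSO, but no difference of changes passed for them. Their DMSO libraries at 5 h also lay above those at 0 h, beside 15.8% of all genes whose DMSO libraries did not overlap. AJUBA went from 5.40, 5.48 and 5.08 to 9.91, 9.27 and 11 CPM with DMSO, and THBS1 from 298, 342 and 313 to 468, 462 and 446 CPM. WWTR1, which encodes TAZ, fell in both, by 0.38 and 0.27.

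ANKRD1, a YAP target found at the sarcomere and in the nucleus, stood apart. With DMSO it rose from 0.415, 2.51 and 1.69 CPM to 58.8, 58.6 and 46.4 CPM (log2 change 5.05, adjusted p = 1.31e-13), the largest rise of that arm among genes of at least 3 CPM whose libraries did not overlap. With MAPKi its libraries held 0 to 1.25 CPM at 0 h and 0.143 to 2.42 CPM at 5 h (1.40, adjusted p = 0.334). The difference of changes missed the threshold (-3.66, adjusted p = 0.055).

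**Figure D3:**
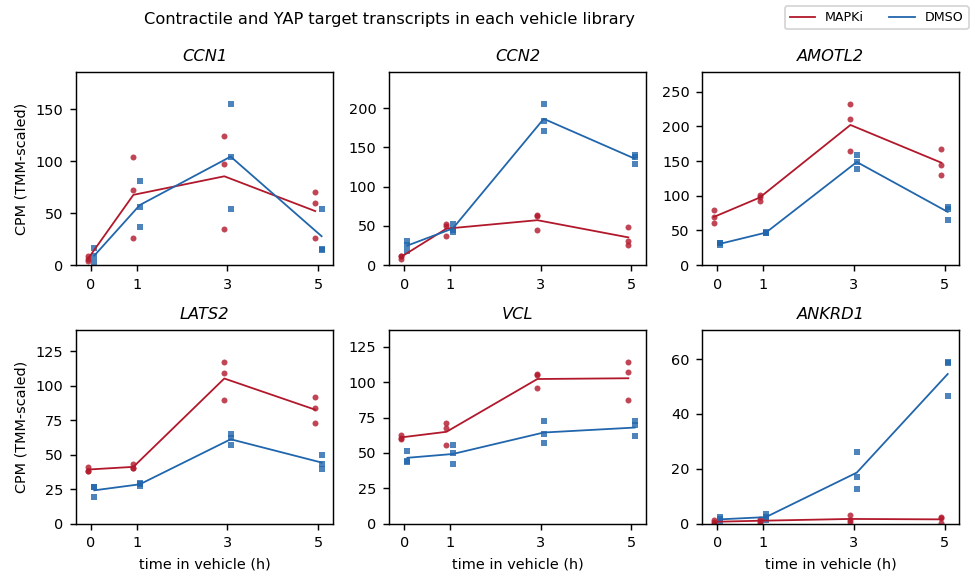
CPM (y axis, from 0) against time in vehicle (x axis, h) for 6 contractile and YAP target genes, 1 point per library and lines through group means of 3 (MAPKi red circles, DMSO blue squares). CCN1, CCN2, AMOTL2, LATS2 and VCL are above their 0 h means at 3 h in both pretreatments, and ANKRD1 climbs to a mean of 54.6 CPM with DMSO and 1.52 CPM with MAPKi.

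TEAD factors are known to bind GGAATG, a motif added after the values were seen. It was in 8 of the 21 promoters of this list (38.1%), in 5 of the 9 of its members called higher with MAPKi (55.6%) and in 11.1% of all 11024 promoters. Among all genes called higher it was in 18 of 150 promoters (12%). The promoters of CCN2 (chr6:131951323-131951622, minus strand) and LATS2 (chr13:21061537-21061836, minus strand) are shown with GGAATG in capitals. They are examples of genes that rose in both pretreatments and hold the letters. AMOTL2, VCL and CNN2 also rose in both and are not shown.
CCN2: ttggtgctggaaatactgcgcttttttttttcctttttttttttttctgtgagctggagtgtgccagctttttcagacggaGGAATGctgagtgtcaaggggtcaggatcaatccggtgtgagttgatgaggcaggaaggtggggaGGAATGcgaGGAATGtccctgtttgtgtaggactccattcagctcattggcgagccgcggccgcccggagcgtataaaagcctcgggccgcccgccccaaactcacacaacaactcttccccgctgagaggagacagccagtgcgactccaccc
LATS2: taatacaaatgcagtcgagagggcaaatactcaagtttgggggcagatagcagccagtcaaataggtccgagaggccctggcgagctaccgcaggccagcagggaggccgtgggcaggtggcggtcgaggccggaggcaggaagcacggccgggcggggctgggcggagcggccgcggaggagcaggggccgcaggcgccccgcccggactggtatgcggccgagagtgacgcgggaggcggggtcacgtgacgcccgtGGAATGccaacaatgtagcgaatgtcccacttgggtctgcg
The CCN2 window holds 3 matches and that of LATS2 holds 1.

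Outside the lists, the largest rises with MAPKi were of genes with low to moderate levels. GBP1, an interferon-inducible GTPase, stood at 4.25, 5.37 and 4.72 CPM at 0 h, at 12.1, 10.2 and 9.50 CPM at 1 h, at 18.7, 21.3 and 20.5 CPM at 3 h and at 33.1, 26.4 and 27.0 CPM at 5 h, with no overlap between any neighbouring times. Its log2 change was 2.59 (SE 0.32, adjusted p = 9.38e-09). With DMSO it stood at 2.82 to 4.02 CPM at 0 h and 3.27 to 4.84 CPM at 5 h, and the difference was called (2.32, SE 0.48, adjusted p = 0.00598) but lost with DESeq2 and without replicate 1 or 3. None of the 21 interferon response genes tested was called with MAPKi, by edgeR or DESeq2, and none had an unadjusted p under 0.05.

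HDAC9, a class IIa histone deacetylase, rose in both pretreatments. With MAPKi it stood at 12.8, 12.2 and 12.8 CPM at 0 h, 27.5, 18.9 and 21.7 CPM at 1 h, 44.4, 49.0 and 34.5 CPM at 3 h and 65.6, 60.3 and 64.3 CPM at 5 h (log2 change 2.33, adjusted p = 2.75e-14). With DMSO it rose by 1.64 (adjusted p = 3.63e-07), from a mean of 5.91 to 19.0 CPM. CREB5, a leucine zipper transcription factor, rose from 3.43, 4.48 and 3.64 CPM to 16.5, 23.3 and 16.0 CPM with MAPKi (2.28, adjusted p = 8.6e-09). Its 3 h libraries, at 27.7, 35.1 and 26.3 CPM, lay above those at 5 h. CREB5 was 2.00 lower on the log2 scale in MAPKi than in DMSO in the 0 h inhibitor-arm libraries, and with DMSO it changed by 0.61 (adjusted p = 0.262), a difference of 1.67 (adjusted p = 0.0121). That difference was lost with the 24 vehicle libraries alone, with the slope and when any replicate was left out.

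Of the other large rises, RELB (1.56), a subunit of NF-κB, kept its call under every alternative tried. RELB rose with DMSO as well (0.96, adjusted p = 0.00517). ABLIM1 (1.76), which binds actin, lost its call without replicate 1 or 2. VGLL3 (1.93), a TEAD cofactor, had an adjusted p of 0.0456 and lost it when any replicate was left out. LOC145694 (3.16) and LOC107985054 (2.79) stood at means of 0.558 and 0.66 CPM at 0 h and of 5.06 and 4.35 CPM at 5 h, few reads, and neither was called by DESeq2.

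The largest falls were mostly of genes at low levels. AIM2, a sensor of cytosolic DNA, fell with MAPKi from 28.7, 41.5 and 32.2 CPM to 13.5, 13 and 16.4 CPM (log2 change -1.24, adjusted p = 1.29e-06) and kept its call under every alternative, whereas with DMSO its change was -0.28 (adjusted p = 0.597) and the difference missed the threshold (adjusted p = 0.0555). CIITA, the regulator of MHC class II genes, fell from 7.14, 10.7 and 10.7 CPM to 2.58, 5.75 and 3.13 CPM (-1.31, adjusted p = 0.0026), and its DMSO libraries overlapped. KCNJ10, a potassium channel of glia, fell from 13.9, 13.1 and 21.6 CPM to 5.01, 4.42 and 5.14 CPM (-1.73, adjusted p = 0.000638). With DMSO, KCNJ10 also went down, from 2.70, 1.72 and 1.38 CPM to 0.676, 0.273 and 0.403 CPM. MATN4, a matrix protein, went from 13.9, 11.6 and 17.5 CPM to 4.87, 6.96 and 4.94 CPM (-1.36, adjusted p = 0.0304), and its change differed from that with DMSO (-2.93, adjusted p = 0.0266), where it had at most 4.09 CPM, a difference lost by DESeq2 and when any replicate was left out. TP73, of the p53 family, fell by 1.35 (adjusted p = 0.0183), from a mean of 4.62 to 1.84 CPM. With DMSO, TP73 went from 8.92, 12.4 and 10.9 CPM to 6.98, 7.64 and 6.32 CPM. The call on KCNJ10 was lost without replicate 3, that on CIITA without replicate 1 or 3, that on TP73 without replicate 2 or 3 and that on MATN4 when any was left out. The remaining falls by this rule were CLEC18B, PRR22, the transfer RNA entry TRG-GCC1-5 and the non-coding entries LHFPL3-AS1, LINCR-0003, LOC105375436 and LOC105369313, between -2.03 and -1.36, from means of 3.36 to 17.1 CPM. Of these 7, LINCR-0003 kept its call without each replicate. With DMSO, LINCR-0003 also went down, from 13.7, 12.1 and 9.95 CPM to 5.63, 6.54 and 6.32 CPM. The DMSO libraries of TRG-GCC1-5 were likewise lower at 5 h without overlap, and those of the remaining entries overlapped.

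The genes whose changes differed most clearly included transcription factors of the MAPK response and of melanocytes. JUN, a subunit of AP-1, was high in MAPKi-pretreated cells at 0 h, with 252, 273 and 260 CPM, and stood at 206, 219 and 220 CPM at 5 h, a log2 change of -0.28 that did not pass (adjusted p = 0.292). With DMSO it rose from 23.0, 20.7 and 22.3 CPM to 53.8, 59.4 and 42.7 CPM (1.23, adjusted p = 9.91e-08). The difference of -1.51 (SE 0.21, adjusted p = 4.92e-06) was kept under every alternative. All MAPKi libraries remained above all DMSO libraries.

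MITF, the master factor of the melanocyte lineage, fell in both. With MAPKi it stood at 532, 424 and 507 CPM at 0 h, 433, 344 and 432 CPM at 1 h, 281, 238 and 280 CPM at 3 h and 416, 292 and 372 CPM at 5 h, so the lowest libraries were those at 3 h. Its log2 change at 5 h was -0.44 (adjusted p = 0.00681). With DMSO it fell from 354, 338 and 364 CPM to 153, 136 and 159 CPM (-1.24, adjusted p = 1.26e-13), a difference of 0.80 (adjusted p = 0.00257). The MAPKi call and that on the difference were each lost without replicate 1 or 3 and with a slope fitted over the 4 times.

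CDC42EP3, an effector of CDC42 in the cytoskeleton, rose with MAPKi from 70.7, 86.1 and 61.8 CPM to 152, 188 and 188 CPM (1.28, adjusted p = 4.05e-07). With DMSO its 0 h and 5 h libraries overlapped, at 209 to 277 and 170 to 230 CPM. The difference of 1.67 (adjusted p = 1.39e-05) was kept under every alternative. EXOSC10, a nuclease of the RNA exosome, fell with MAPKi from 156, 144 and 127 CPM to 73.6, 88.4 and 73.3 CPM (-0.86, adjusted p = 7.61e-12), close to the DMSO libraries of 61.8 to 71.6 CPM at 5 h. Its difference of -0.83 (adjusted p = 1.39e-05) was lost without replicate 1.

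CDK6, a kinase of G1, rose with MAPKi from 75.3, 74.3 and 73.6 CPM to 119, 109 and 117 CPM (0.63, adjusted p = 2.45e-06), still far below the DMSO libraries of 380 to 428 CPM at 0 and 5 h, with a difference of 0.71 (adjusted p = 0.00125). NME1, a nucleoside diphosphate kinase and MYC target, fell from 206, 287 and 232 CPM to 145, 167 and 150 CPM (-0.65, adjusted p = 9.24e-07), with a difference of -0.71 (adjusted p = 0.00154). The difference was lost for CDK6 without replicate 1 or 2 and for NME1 when any replicate was left out. TRAF1, an adaptor of TNF receptors, fell with DMSO from 13.5, 11.1 and 10.9 CPM to 4.05, 5.45 and 2.02 CPM (-1.70, adjusted p = 0.000528) and not with MAPKi, a difference of 2.43 (adjusted p = 0.00125), lost by DESeq2 and without replicate 3. INHBA and LRATD2 had the same pattern, with DMSO falls of 1.46 and 1.39 and differences of 2.03 and 2.48, neither called by DESeq2. In MAPKi-pretreated cells both were near the floor throughout, at means of 3.12 to 5.44 CPM and 0.386 to 1.53 CPM.

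**Figure D4:**
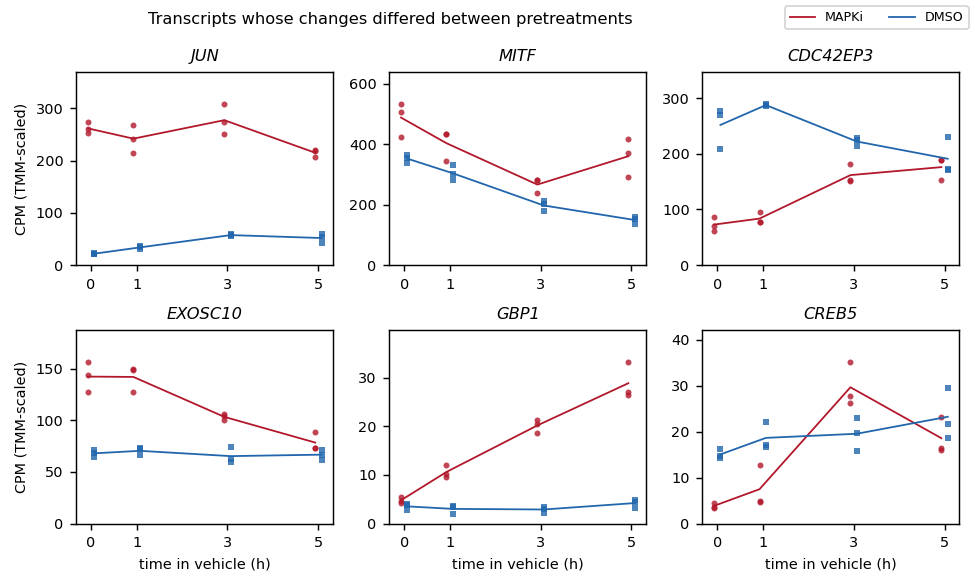
CPM (y axis, from 0) against time in vehicle (x axis, h) for 6 genes whose changes differed between pretreatments, 1 point per library and lines through group means of 3 (MAPKi red circles, DMSO blue squares). JUN rises with DMSO, MITF falls less with MAPKi, CDC42EP3, GBP1 and CREB5 rise with MAPKi, and EXOSC10 falls with MAPKi towards the DMSO libraries.

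Most direct MAPK targets stayed low and did not pass the test. Of 24 tested, 2 were called higher and 2 lower with MAPKi (8.33% each), beside 1.26% and 2.07% of all genes. The median was 0.04 and no difference between pretreatments passed (unadjusted p under 0.05 for 4 higher and 1 lower, 0 by DESeq2). In the 0 h inhibitor-arm libraries the median difference between MAPKi and DMSO was -3.07. DUSP6, the ERK phosphatase read as a gauge of the pathway, stood at 1.65, 0.358 and 1.21 CPM at 0 h, at 5.95, 3.92 and 6.19 CPM at 1 h, at 1.71, 1.33 and 1.41 CPM at 3 h and at 1.15, 2.14 and 1.82 CPM at 5 h. The 1 h libraries lay above all the others of the arm and below every DMSO library, which held 228 to 395 CPM at 0 and 5 h. The 5 h change of 0.60 did not pass (adjusted p = 0.762). SPRY4, a feedback inhibitor, stayed at or below 0.977 CPM in all 12 MAPKi libraries, against 60.8 to 145 CPM in the 12 DMSO libraries. CCND1, which encodes cyclin D1, ran from 9.17 to 18.0 CPM with MAPKi and from 348 to 474 CPM with DMSO.

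The members that changed went both ways. DUSP4, another ERK phosphatase, fell further from 23.7, 20.6 and 24.7 CPM to 12.3, 12.6 and 14.1 CPM (-0.82, adjusted p = 1.21e-05). PHLDA1 fell from 149, 112 and 156 CPM to 73.4, 61.1 and 82.5 CPM (-0.94, adjusted p = 0.00033). FOSL1, an AP-1 subunit, rose from 10.2, 13.2 and 11.9 CPM to 18.5, 26.2 and 22.2 CPM (0.93, adjusted p = 0.00172), and ELK3, an ETS factor, from a mean of 16.2 to 23.7 CPM (0.55, adjusted p = 0.00394). With DMSO none of the 4 passed. The DMSO libraries of DUSP4 nevertheless went from 238, 244 and 229 to 176, 191 and 208 CPM, and those of PHLDA1 from 464, 506 and 565 to 345, 321 and 415 CPM. Those of FOSL1 and ELK3 overlapped. Of the 24 targets, 2 were higher and 5 lower with DMSO at an unadjusted p under 0.05, and DESeq2 called 0 higher and 2 lower. The call on PHLDA1 was lost without replicate 1, that on FOSL1 without replicate 3 and that on ELK3 without replicate 2 or 3.

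Genes linked to drug tolerance and lineage changed in both directions. NGFR, the neurotrophin receptor of neural crest-like melanoma cells, rose from 63.1, 85.0 and 90.7 CPM to 149, 174 and 162 CPM with MAPKi (1.02, SE 0.19, adjusted p = 0.00016), against 1.36 to 3.23 CPM with DMSO at 5 h. IGF1R rose from a mean of 36.9 to 50.7 CPM (0.46, adjusted p = 0.00663). SOX9 fell from 211, 211 and 194 CPM to 124, 126 and 120 CPM (-0.73, adjusted p = 3.01e-06), and with DMSO by 0.51 (adjusted p = 0.00309). SOX2 had 23.6, 26.9 and 19.1 CPM at 3 h, below its 5 h libraries of 51.4, 38.7 and 48.5 CPM, and its 5 h change of -0.68 had an adjusted p of 0.0492. The receptor ERBB3 fell in both, by 0.42 and 0.37. These were 2 higher (9.09%) and 3 lower (13.6%) of 22, beside 1.26% and 2.07% of all genes. Of 16 melanocyte lineage genes 2 (12.5%) were called lower with MAPKi, MITF and PPARGC1A. PPARGC1A, the mitochondrial coactivator that MITF controls, fell from 93.3, 58.4 and 72.0 CPM to 36.6, 31.3 and 44.4 CPM (-0.99, adjusted p = 0.00119). The calls on IGF1R and SOX2 were lost when any replicate was left out and that on PPARGC1A without replicate 1.

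Of 29 glycolysis and hypoxia genes 8 were called lower with MAPKi (27.6%), beside 2.07% of all genes, and PFKFB3 higher, with none called with DMSO and medians of -0.23 and -0.13. At an unadjusted p under 0.05, 8 were lower and 1 higher with DMSO, and DESeq2 called 1 each way. The lower members included the enzymes ENO1 (-0.32), ENO2 (-0.53), PGK1 (-0.27), TPI1 (-0.30) and LDHB (-0.21), the regulators PFKFB4 (-0.80) and BNIP3 (-0.44), and ANKRD37 (-0.92). With total counts 1 of the 8 was still called, and 0, 1 and 1 without replicate 1, 2 or 3. PFKFB3, which raises glycolytic flux, rose by 0.50 with MAPKi (adjusted p = 0.0446) and its change differed from DMSO (0.83, adjusted p = 0.0311), both lost when any replicate was left out.

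Of 71 cytosolic ribosomal protein genes 65 had a negative change with MAPKi and 26 with DMSO, with medians of -0.15 and 0.04, beside 7480 and 7853 of the 14948 genes tested with a negative change. With MAPKi 4 (5.63%) were called lower, beside 2.07% of all genes, RPL18, RPLP0, RPS20 and RPS24, between -0.26 and -0.19, and none when any replicate was left out. Of 36 MYC and ribosome synthesis genes 3 (8.33%) were called lower (NME1, NPM1, NOLC1) and 1 (2.78%) higher. The higher gene was POLR1B of RNA polymerase I (0.39, adjusted p = 0.034), whose change differed from DMSO (0.72, adjusted p = 0.00814). Of 21 heat shock genes the chaperones HSP90AA1 (-0.56), HSP90AB1 (-0.36), HSPD1 (-0.44) and HSPH1 (-0.31) were lower (19%). CRYAB (0.71) and CHORDC1 were higher (9.52%, beside 1.26% of all genes). The call on CHORDC1 rested on 1 library at 9.38 CPM, with the other 5 at or below 0.143 CPM. HSP90AA1 went from 3410, 4710 and 3950 CPM to 2570, 3000 and 2620 CPM (adjusted p = 5.1e-06), a difference from DMSO of -0.48 (adjusted p = 0.0369). The differences of POLR1B and HSP90AA1 were lost when any replicate was left out. So were the MAPKi calls on NPM1, NOLC1, POLR1B, HSP90AB1, HSPH1, CRYAB and CHORDC1. The call on HSPD1 was lost without replicate 1 or 2, and those on NME1 and HSP90AA1 were kept without each replicate.

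The calls with MAPKi in the other lists are given beside 1.26% of all genes higher and 2.07% lower. Of the stress genes under ATF4, 2 of 31 (6.45%) were lower, GDF15 (-1.13, adjusted p = 1.68e-05) and WARS1 (-0.35). GDF15, a secreted stress factor, fell with DMSO as well (-0.66, adjusted p = 0.0114). Of 23 FOXO and PI3K feedback genes 3 (13%) were lower, ERBB3, SESN3 (-0.80) and TRIB2 (-0.90). Of 34 cholesterol genes HMGCS1 (0.75) and LPIN1 (0.54) were higher (5.88%). The change of MSMO1, a sterol oxidase, differed between pretreatments (1.39, adjusted p = 0.0122, lost when any replicate was left out). Of 38 collagen, laminin and integrin genes ITGA1 (0.65) and ITGA2 (0.72) were higher (5.26%) and LAMB1 (-0.33) lower (2.63%). Single members passed among p53 targets (MDM2, 0.32), BCL2 family (BNIP3), TGF-beta feedback (ID2, -0.63), Wnt and Notch feedback (JAG1, 0.87), histones (H4C3, -0.75) and aspartate and glutamate metabolism (GAD1, 0.64). In these lists a single member is 4.35% to 7.69% of those tested. Of 24 immediate-early genes SRF (0.70) was higher and FOS (-0.88) lower (4.17% each). Of 19 G1 genes CDK6 was higher and CCNE2 (-0.74) lower (5.26% each). Of 18 chemokine and NF-κB genes RELB was higher and NFKB1 (-0.46) lower (5.56% each). Of 19 circadian clock genes CRY1 (0.69) was higher and BHLHE41 (-0.52) lower (5.26% each), and of 41 lysosome and V-ATPase genes MITF alone was called (2.44%). None of 7 TXNIP and alpha-arrestin genes passed, with 1 lower at an unadjusted p under 0.05 and 1 lower by DESeq2. The MAPKi calls on WARS1, ITGA1, ITGA2, MDM2, BNIP3, H4C3, GAD1, SRF, CCNE2 and CRY1 were lost when any replicate was left out. Those on ERBB3, SESN3, TRIB2, CDK6 and RELB were kept without each replicate. Every other MAPKi call in these lists was lost without at least 1 replicate.

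**Figure D5:**
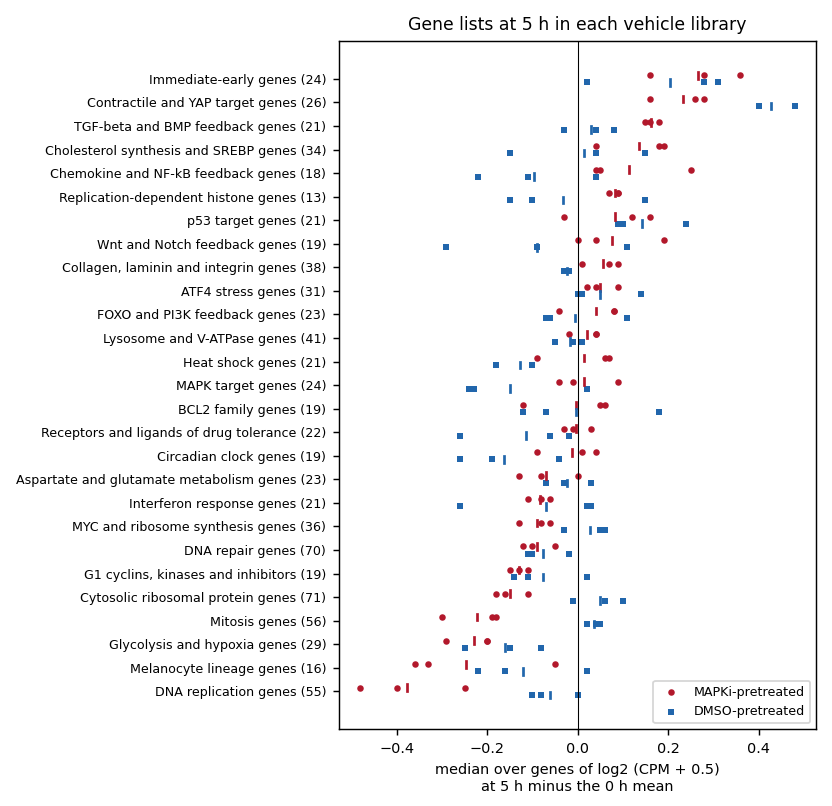
Change of each gene list at 5 h, as the median over its genes of log2 (CPM + 0.5) minus the gene's 0 h mean in the same pretreatment (x axis), with 1 point per library, bars at the mean of 3 and the number of genes tested in brackets. DNA replication, mitosis and ribosomal protein genes lie below 0 in all 3 MAPKi libraries and apart from the DMSO libraries, and contractile and YAP target genes lie above 0 in all 6.

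At 1 h of MAPKi vehicle 17 genes passed (0.114% of those tested), 12 higher (0.0803%) and 5 lower (0.0334%), and all are named here although they were picked by no earlier rule. The higher genes were CCN1, CCN2, KLF6, BCL6, GADD45A, IER5, RND3, TNFAIP3, FAM43A, RHOB, AMD1 and DUSP1, among them rapid response genes. KLF6, a zinc finger factor, stood at 46.5, 46.7 and 56.9 CPM at 0 h, at 120, 107 and 134 CPM at 1 h and at 53, 59.1 and 57.7 CPM at 5 h. TNFAIP3, an inhibitor of NF-κB, stood at 1.23, 1.97 and 0.944 CPM at 0 h, at 8.77, 6.09 and 4.34 CPM at 1 h and at 1.57, 0.268 and 0.605 CPM at 5 h. With DMSO, KLF6 went from a mean of 79.8 to 112 CPM in that hour and TNFAIP3 from 13.9 to 18.3 CPM. Most of these pulses were over by 5 h, where CCN1, CCN2 and RHOB were called. The 5 lower genes were TXNIP, KCNQ1OT1, NARS2, ZNF234 and KLHL36, and none was called at 5 h. Without replicate 1 the count was 3.

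At 3 h 269 genes passed (1.80%), 175 higher (1.17%) and 94 lower (0.629%), and 120 genes were called in the same direction at 3 h and 5 h, which share their 0 h libraries. At 3 h 2 of the 55 replication genes and 1 of the 56 mitosis genes were called lower, while 7 of the 26 contractile and YAP target genes were called higher and 1 lower. Without replicate 1, 2 or 3 the count of 269 was 101, 130 and 111.

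MALAT1, a long non-coding RNA kept in the nucleus, moved with the MAPKi drift in this cytoplasmic RNA. It stood at 13700, 12300 and 12700 CPM at 0 h and at 17800, 17200 and 17800 CPM at 5 h (0.45, SE 0.06, adjusted p = 1.29e-07), against 5600 to 5980 and 5640 to 6210 CPM with DMSO, a difference of 0.40 (adjusted p = 0.00598) that was lost when any replicate was left out. NEAT1, another such RNA, changed by 0.40 and 0.43 (adjusted p = 0.0785 and 0.114). The mitochondrial rRNAs, another RNA class, made up 3.87% to 4.75% of counts at 0 h and 4.40% to 5.33% at 5 h of MAPKi, and neither was called. The TMM factors were 1.06 to 1.10 at 0 h and 1.11 to 1.13 at 5 h of MAPKi. The part of these shifts in the lower level of replication, mitosis and ribosomal protein transcripts was not tested.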

How the data were processed

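A375 cytoplasmic RNA was read by QuantSeq 3′ sequencing in 96 libraries of 32 groups. Per the labels, the authors trimmed reads with fastp 0.20.1, aligned them to GRCh38.p13 with HISAT2 2.2.1 and counted reads per gene with HTSeq 0.13.5, and they deposited raw counts of 44659 gene entries, with no spike-in rows among them. Groups were read from the sample titles. All libraries were fitted with edgeR 4.0.16 (R 4.3.3), with TMM factors, filterByExpr over the 32 groups (14948 genes kept), 1 mean per group and two-sided quasi-likelihood tests, and p-values were adjusted over all genes tested (Benjamini-Hochberg) with a threshold of 0.05. The difference of changes was a contrast in the same fit. Standard errors came from the F statistics. Log2 changes against a group with few reads depend on edgeR's prior count. On counts simulated for the MAPKi comparison of 5 h with 0 h, 57% of 1.5-fold and 95% of 2-fold changes were recovered, with 4 false calls. The changed genes excluded those of low mean CPM, and the counts were drawn with the spread that this fit had estimated. Recovery at low levels and false calls under any other spread were therefore not tested.

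Named genes were the 12 largest rises and 12 largest falls with MAPKi and the 5 each way with DMSO among called genes with non-overlapping libraries and at least 3 CPM in the higher group, the 8 lowest adjusted p for the difference, and called members of the gene lists. A result that this rule names is not reported here. The members and lists were chosen with earlier results of these data known. Alternatives were DESeq2 1.42.0, its size factors, total counts, no filter, the 24 vehicle libraries alone, a replicate block, 0 h libraries of the inhibitor arms, a slope over the times and leaving out each replicate. The labels name no shared culture or day for a replicate number. The count columns of a replicate number do share a prefix across all groups, whose meaning is not stated. The authors included the replicate in their own model of translation-dependent decay. Deviations of same-numbered libraries from their group means correlated at 0.11, 0.50 and 0.20 between 0 h and 1 h of MAPKi and at 0.40, 0.52 and 0.14 between 0 h and 3 h. Replicate 1 at 0 h nevertheless matched replicate 3 at 1 h best. Between 0 h and 5 h not all pairs passed 0.1. Replicate 2 had the lowest total count of its MAPKi group at 0, 1 and 3 h, and the part of depth in these correlations was not tested. Gene overlaps come from GENCODE 44, which held 27026 of the 44659 entries. Libraries of a group differed by more than counting noise (chi-square per degree of freedom 3.18 to 12.3), so none was counted as a duplicate.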

Additional observations from a re-analysis of the deposited data

Results flagged for a closer look

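The change from 0 to 5 h in vehicle differed between MAPKi-pretreated and DMSO-pretreated cells, by the contrast of changes in the edgeR fit, for 110 genes. The values below are the log2 change with MAPKi minus that with DMSO, with each group of 3 libraries. Among the genes with the lowest adjusted p the difference was -1.51 for JUN, -0.83 for EXOSC10, 1.67 for CDC42EP3, -0.81 for INCENP, 0.71 for CDK6, 2.43 for TRAF1, -0.71 for NME1 and 0.80 for MITF. Among the largest rises and falls it was 2.32 for GBP1, 1.67 for CREB5, -2.93 for MATN4, 2.03 for INHBA and 2.48 for LRATD2. Of the replication genes, MCM3 and MCM7 were at -0.73, CDT1 at -1.02 and RRM2 at -0.58. Of the mitosis genes, CDC25B was at -0.63, BIRC5 at -0.42, CENPF at -0.47, KIF4A at -0.55, TOP2A at -0.66, PTTG1 at -0.61, MKI67 at -0.56 and FOXM1 at -0.71. In the other lists the values were -0.53 for XRCC6, 1.39 for MSMO1, 0.83 for PFKFB3, -0.56 for AMOTL1, -0.48 for HSP90AA1, -0.45 for LAMB1, 0.72 for POLR1B and -0.35 for RPL11 and RPL18. The nuclear RNA MALAT1 was at 0.40. Adjusted p ran from 4.92e-06 for JUN to 0.0487 for CENPF. The sign held under all alternatives for each of these genes, and JUN and CDC42EP3 were called under all 11.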

How the results depend on the processing

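The count of genes called was 499 for MAPKi 5 h against 0 h, 159 for DMSO, 110 for the difference of changes, 17 for MAPKi at 1 h and 269 at 3 h. Leaving out 1 replicate at a time, which put fewer libraries in each fit, gave 111 to 174, 40 to 68, 6 to 9, 3 to 11 and 101 to 130. With the 0 h libraries of the inhibitor arms, 9 per pretreatment in place of 3, the counts were 1740, 292, 566, 51 and 730. The slope over 4 times gave 758 for MAPKi. Without the filter on low counts 410 were called for DMSO, 395 for the difference and 38 at 1 h. The DESeq2 test called 250 for DMSO, 227 for the difference and 35 at 1 h. With the 24 vehicle libraries alone the difference gave 32 and 1 h gave 26. The causes of these shifts in the counts were not tested. Other alternatives kept the counts within 1.5 times. Of the 499 calls 394 were kept with total counts, 468 with the inhibitor-arm 0 h libraries and 486 by DESeq2. All 168 results on named genes kept their sign and 31 were called under every alternative.

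Whether replicate numbers pair the 0 h and 5 h libraries cannot be settled with 3 libraries a group. Deviations from the group mean correlated at -0.15, 0.17 and 0.14 for MAPKi and at 0.34, -0.12 and 0.57 for DMSO. Replicate 1 held the largest mitochondrial rRNA share of its group at 0 h and 5 h, at 4.75% and 5.33% with MAPKi and 3.56% and 3.45% with DMSO. Between the 0 h libraries of MAPKi and those at 1 h and 3 h all 6 correlations were above 0.1. Each library matched its own number best between 0 h and 3 h, whereas replicate 1 at 0 h matched replicate 3 at 1 h best. With a replicate block the counts were 639, 225, 157, 24 and 316, and all 168 named results kept their call. With the block all 17 calls at 1 h and 267 of the 269 at 3 h were kept in the same direction, and LOC105372234 and TFCP2L1 were lost. A slope was not fitted for the 1 h and 3 h comparisons.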
